A study of Homo sapiens with 4 samples.

Results

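The genes described here are 8 genes of sterol metabolism, 4 regulators (SREBF1, SREBF2, SCAP and INSIG2) and 4 enzymes of cholesterol synthesis (HMGCS1, IDI1, LSS and DHCR7). They were chosen by name, and their members in the data are the 500 bp windows of the hg19 genome whose midpoint lies between 3000 bp upstream of the start and the end of the canonical transcript. The genome holds 598 such windows at the 8 genes, of which 334 are among the 956365 windows of the deposited table. A window in the table is called listed below.

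The study prepared 1 library from each of 4 conditions of FADU cells, an established line from a human squamous cell carcinoma of the hypopharynx. The conditions were normoxia with a scrambled control, normoxia with TET1 knockdown, hypoxia with a scrambled control (1% O2 for 18 h) and hypoxia with TET1 knockdown (1% O2 for 19 h). TET1 is an enzyme that oxidises 5-methylcytosine (5mC) to 5-hydroxymethylcytosine (5hmC), and the comparison of these conditions asks where 5hmC depends on TET1 in hypoxia. The sample titles name hMeDIP-seq, while the protocol in the labels uses a 5-methylcytidine antibody and the methods of the study describe chemical labelling of 5hmC, so the mark behind the windows is uncertain. The 4 columns of read values in the table carry names that match no sample, so none of them was used and no condition is compared here. The methods of the study state a lower limit on the reads per sample, but the depth of each library was not computed here, and there are no replicates.

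What can be described is which positions passed the filter that the authors set for the table. The name of the table gives a minimum of 20, without saying what was counted or whether it applied to 1 library or to their sum. A listed window passed it through reads of one or more conditions that are not known. A window that is not listed may still have had reads. Of all windows of the 22 autosomes, 17.6% were listed.

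Cells make cholesterol from acetyl-CoA through the mevalonate pathway, and they adjust its rate to their sterol content. When sterols are low, SCAP escorts the SREBP transcription factors, the products of SREBF1 and SREBF2, from the endoplasmic reticulum to the Golgi, where they are cleaved and then enter the nucleus to activate genes of the pathway. When sterols are high, the INSIG proteins hold SCAP and SREBP in the endoplasmic reticulum. Both 5mC and 5hmC in such cells lie mostly at CpG sites, so the number of CpG sites in a window bears on what the assay can capture.

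The sequences in the next paragraph show what the windows hold, with each CpG in capitals, on the strand of the gene and from 5′ to 3′ in GRCh37. The start window was listed in HMGCS1 and DHCR7 and not in SREBF2 and INSIG2. All exclude protein-coding exons. The HMGCS1 stretch (chr5:43313615-43313814, minus strand) has 15 CpG sites and lies in a listed window. The DHCR7 stretch (chr11:71159482-71159681, minus strand) has 26, and 19 of its 200 bases lie in the listed start window and the rest in the unlisted window upstream of it. The SREBF2 promoter stretch (chr22:42228909-42229108, plus strand) has 21 CpG sites and that of INSIG2 (chr2:118845828-118846027, plus strand) 20.

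HMGCS1 promoter: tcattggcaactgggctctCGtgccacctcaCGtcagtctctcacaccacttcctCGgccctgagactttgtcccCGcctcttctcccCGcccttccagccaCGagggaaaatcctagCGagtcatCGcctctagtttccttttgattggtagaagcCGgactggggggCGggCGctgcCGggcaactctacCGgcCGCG
DHCR7 promoter: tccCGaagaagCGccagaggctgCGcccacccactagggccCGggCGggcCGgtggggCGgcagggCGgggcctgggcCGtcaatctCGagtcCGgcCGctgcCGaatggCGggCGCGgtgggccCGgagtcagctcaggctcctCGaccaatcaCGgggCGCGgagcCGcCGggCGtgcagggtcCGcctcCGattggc
SREBF2 promoter: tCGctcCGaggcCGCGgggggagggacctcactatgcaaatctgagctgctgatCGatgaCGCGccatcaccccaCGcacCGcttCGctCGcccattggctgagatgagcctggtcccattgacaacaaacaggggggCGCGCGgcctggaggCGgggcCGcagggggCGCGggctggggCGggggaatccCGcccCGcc
INSIG2 promoter: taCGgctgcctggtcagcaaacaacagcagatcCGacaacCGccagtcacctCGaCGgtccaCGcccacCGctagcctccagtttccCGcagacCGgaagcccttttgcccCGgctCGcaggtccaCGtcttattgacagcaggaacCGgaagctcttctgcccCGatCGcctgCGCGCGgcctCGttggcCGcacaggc

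Of these stretches, only that of HMGCS1 lies wholly in a listed window. It has the fewest CpG sites, but its whole 500 bp window holds 39. The unlisted windows of the INSIG2 stretch hold 35 and 30, and those of the SREBF2 stretch 39 and 63. The SREBF2 promoter holds the sterol regulatory element core TCACNCCAC, the type of site that SREBP itself binds, at position -133, where -1 is the last base before the start. This core was searched on both strands from 250 bases before to 50 bases after the canonical start. Within these bases SREBF2 was the 1 member of 8 that held it, against 1.19% of 18977 autosomal promoters. The HMGCS1 stretch above, which begins at position -300, also holds a match, TCACACCAC. It lies just upstream of the bases searched and was not counted. CCAAT, the site of NF-Y, was found in 5 of 8 members (35.7% of all promoters). The Sp1 site GGGCGG was found in 8 of 8 (61.8% of all promoters). The E-box CACGTG was found in 2 of 8, SCAP and LSS (8.71% of all promoters). ACGTG, a form of the core bound by hypoxia-inducible factors that is also contained in the E-box, was found in 3 of 8 (23.2% of all promoters), and its other form GCGTG in 6 of 8 (45.0%).

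Together the 8 genes had 55.9% of their windows listed (334 of 598, 95% Wilson interval 51.9 to 59.8%), against 23.2% of the windows of all autosomal protein-coding genes taken with the same borders. The intervals treat windows as independent, although neighbouring windows share fragments, and cover counting error only. From their CpG number and GC content 31.2% would be listed, so the ratio of listed to predicted windows was 1.79. The median ratio over the 8 genes was 1.77, and 7 of 8 were above 1, of which the intervals of INSIG2 and IDI1 included 1. Over 18978 autosomal protein-coding genes the median ratio was 1.14, and 57.1% were above 1.

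**Figure D1:**
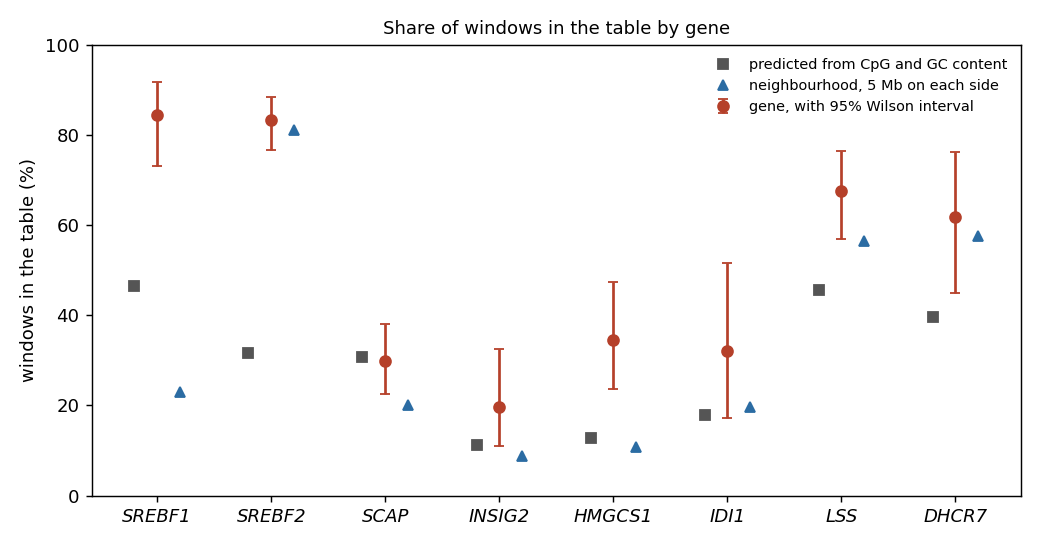
Share of windows in the table (y axis, percent) for each of the 8 genes (x axis), with 95% Wilson intervals, beside the share predicted from CpG number and GC content (squares) and the share within 5 Mb on each side (triangles). SREBF1 and SREBF2 are highest at 84.5% and 83.2%, and the neighbourhoods of SREBF2, LSS and DHCR7 are the highest, at 81.2%, 56.4% and 57.5%.

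SREBF1, which encodes the SREBP-1 proteins that act mainly on fatty acid synthesis genes, lies on chromosome 17 from 17714648 to 17740300 (SREBF1-201, minus strand). It had 49 of 58 windows listed, or 84.5% (73.1 to 91.6%), where 46.5% were predicted. The windows within 5 Mb on each side, without the gene, were listed at 22.9%, which is 0.906 of their prediction. The gene was thus listed more densely than the region around it. All 6 promoter windows and 43 of 52 gene body windows were listed. The longest run of listed windows was 21 windows long (10.5 kb), at the 3′ end of the gene, with a mean of 14.1 CpG sites per window. No run of unlisted windows was longer than 2. There were 2 such runs, of which one held the start window and the next one downstream, with 60 CpG sites each, and the other lay in the gene body, in windows with 1 and 3 CpG sites.

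SREBF1 is known for alternative starts that give SREBP-1a and SREBP-1c. Annotated protein-coding transcripts start in 3 windows. The canonical one was not listed, whereas the window 13368 bp downstream, with 32 CpG sites and the start of SREBF1-206, and the window of another pair of transcripts 22610 bp downstream, with 9 CpG sites, were listed. The files do not say which start is in use in FADU cells.

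SREBF2 encodes SREBP-2, the main activator of cholesterol synthesis genes, and lies on chromosome 22 from 42229109 to 42303309 (SREBF2-201, plus strand). It had 129 of 155 windows listed, 83.2% (76.6 to 88.3%), against 31.7% predicted. Its ratio of 2.63 was above that of 96.4% of autosomal protein-coding genes. The neighbourhood was densely listed too, with 81.2% of its 20000 windows in the table and a ratio of 2.17. With the prediction scaled by this neighbourhood, the ratio of SREBF2 was 1.21. The longest listed run spanned 43 windows (21.5 kb) in the gene body with a mean of 7.37 CpG sites per window. No unlisted run was longer than 2 windows, and 7 runs had that length. One of them was the window that holds the start (63 CpG sites) and the one before it (39 CpG sites), and the others lay in the gene body. The next window downstream, with 64 CpG sites, was listed.

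Introns of the SREBF genes carry the microRNA genes MIR33A (in SREBF2, chr22:42296948-42297016) and MIR33B (in SREBF1, chr17:17717150-17717245), which are known to repress cholesterol export genes such as ABCA1. In each host the hairpin lies in intron 16 of 18 of the canonical transcript. MIR33A spans the border of 2 windows, with 10 and 8 CpG sites, and both were listed, with predicted shares of 57.4% and 51.9%. MIR33B lies in 1 window with 19 CpG sites, which was also listed (77.5% predicted). The mature 5p sequences from RefSeq are given next with the seed, bases 2 to 8, in capitals, to show that these microRNAs have the same seed.

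hsa-miR-33a-5p: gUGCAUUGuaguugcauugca
hsa-miR-33b-5p: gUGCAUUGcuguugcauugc

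SCAP, the escort of SREBP, lies on chromosome 3 from 47455171 to 47517431 (SCAP-201, minus strand). It had 39 of 131 windows listed, 29.8% (22.6 to 38.1%), against 30.8% predicted. Its ratio of 0.967 was the lowest of the 8, with an interval from 0.735 to 1.24 that included 1. The ratio was 1.09 with the prediction from CpG number alone and 1.21 with the prediction scaled by the neighbourhood. Its promoter had 1 of 6 windows listed, the window just upstream of the start with 36 CpG sites. Listed windows were not spread evenly. A run of 16 (8.0 kb, mean 14.7 CpG sites) lay 52431 to 60430 bp downstream of the start, near the 3′ end. A run of 20 unlisted windows (10.0 kb, mean 4.90 CpG sites) lay 17931 to 27930 bp downstream. The neighbourhood was listed at 20.0%, a ratio of 0.797.

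INSIG2, a retention protein for SCAP, lies on chromosome 2 from 118846047 to 118868573 (INSIG2-201, plus strand). It had the lowest share of the 8, with 10 of 51 windows listed, 19.6% (11.0 to 32.5%). It also had the lowest mean number of CpG sites, 4.39 per window, and a predicted share of 11.2%. The interval of its ratio of 1.75, from 0.983 to 2.90, included 1. Of its 10 listed windows, 4 formed a run just after the start window, from 454 to 2453 bp downstream. The last 15 windows (7.5 kb) were all unlisted. Its neighbourhood was the most sparsely listed of the 8, at 8.81% and a ratio of 0.514. With the prediction scaled by it, the ratio of INSIG2 was 3.40.

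HMGCS1, the synthase that makes HMG-CoA, lies on chromosome 5 from 43287572 to 43313514 (HMGCS1-201, minus strand). It had 20 of 58 windows listed, 34.5% (23.6 to 47.3%), against 12.9% predicted, a ratio of 2.68. The listed windows were concentrated upstream. All 6 promoter windows were listed against 1.35 predicted, and they formed the longest listed run (3.0 kb, mean 11.8 CpG sites). In the gene body 14 of 52 windows were listed. The promoter ratio of 4.43 was above that of 98.9% of autosomal genes. The neighbourhood was listed at 10.8%, a ratio of 0.962, while HMGCS1 itself was at 2.68. The window that holds its start, with 39 CpG sites, was listed, and the next one downstream, with 36 CpG sites and the start of HMGCS1-206, was not.

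IDI1, the isomerase of the isoprenoid units, is the shortest of the 8, on chromosome 10 from 1085359 to 1095059 (IDI1-201, minus strand). It had 8 of 25 windows listed, 32.0% (17.2 to 51.6%), against 17.9% predicted. The interval of its ratio of 1.79, from 0.962 to 2.89, included 1. In its promoter 3 of 6 windows were listed, with a mean of 6.33 CpG sites, and the 3 that were not had a mean of 28.0. Of the 3 windows with annotated starts, those with 51 and 60 CpG sites were unlisted and that with 31, 722 bp downstream of the canonical start, was listed.

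LSS, the cyclase that forms lanosterol, lies on chromosome 21 from 47608360 to 47648688 (LSS-202, minus strand). It had 58 of 86 windows listed, 67.4% (57.0 to 76.4%), against 45.7% predicted, a ratio of 1.48. Its neighbourhood was listed at 56.4% with a ratio of 1.44, and with the prediction scaled by it LSS was at 1.03. In the promoter the 3 listed windows had a mean of 9.33 CpG sites and the 3 unlisted ones 37.3. The window with the start of 5 transcripts, with 52 CpG sites, was unlisted, as was the one upstream of it with 57.

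DHCR7, the reductase of the last step to cholesterol, lies on chromosome 11 from 71145457 to 71159439 (DHCR7-201, minus strand). It had 21 of 34 windows listed, 61.8% (45.0 to 76.1%), against 39.6% predicted, a ratio of 1.56. Its neighbourhood was listed at 57.5% with a ratio of 1.88, so that against the local prediction DHCR7 was at 0.831, below 1. Its start window, with 44 CpG sites and the starts of 13 protein-coding transcripts, was listed. The adjacent upstream window, with 50 CpG sites, was not. A run of 6 unlisted windows lay 1439 to 4438 bp downstream, and 6 listed windows formed the 3′ end.

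**Figure D2:**
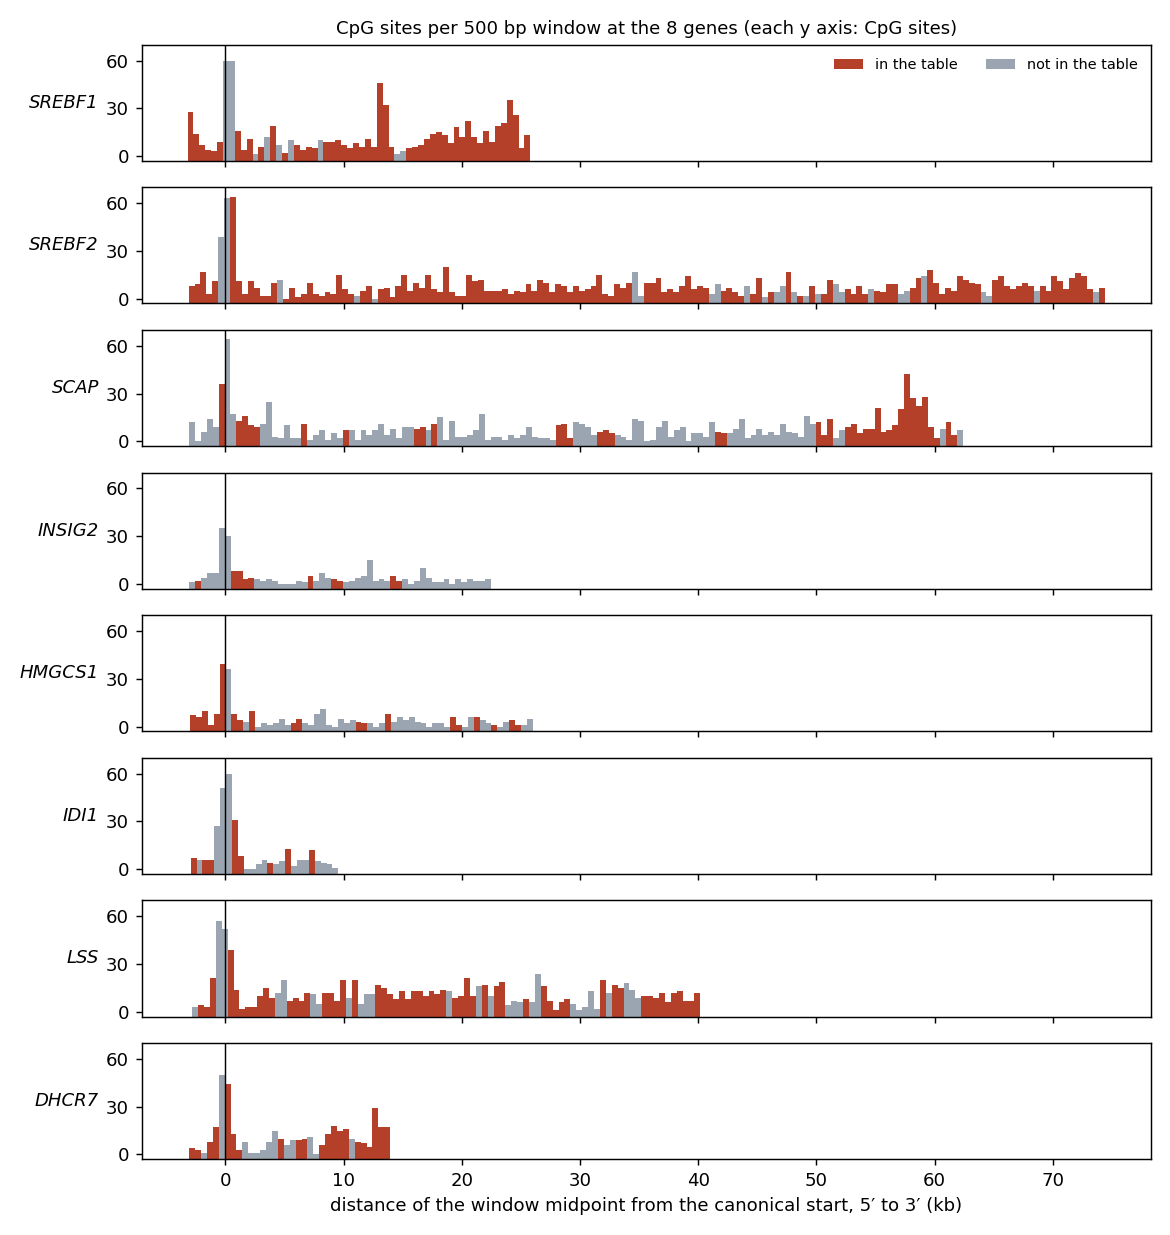
Number of CpG sites in each 500 bp window (y axis) against the distance of its midpoint from the canonical start in kb (x axis, 5′ to 3′) for the 8 genes. Bars begin just under 0 so that windows without a CpG site are visible, and colour shows whether the window is in the table. SREBF1, SREBF2 and LSS are listed along most of their length, and SCAP mainly in a block near its 3′ end.

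Against their neighbourhoods the 8 genes fell into different positions. The genes SREBF2, LSS and DHCR7 lay in regions whose ratio was above 1, and the other 5 in regions below 1. Without SREBF2, LSS and DHCR7, the share of the other 5 genes was 39.0% (126 of 323 windows, 33.9 to 44.4%), and their ratio 1.48. With the prediction of each gene scaled by its neighbourhood, the ratio over all 8 was 1.29. Copy number of the cell line along the genome was not measured in the files, and its part in these shares was not tested.

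By role, the 4 regulators had 57.5% of windows listed (227 of 395, 52.5 to 62.3%) and the 4 enzymes 52.7% (107 of 203, 45.9 to 59.5%). These intervals overlap, and the ratios to the prediction were 1.86 and 1.65. The regulators' share over these regions comes mainly from SREBF1 and SREBF2, which hold 178 of the 227 listed windows. In the promoters alone the order was the other way. The regulators had 13 of 24 windows listed (35.1 to 72.1%, ratio 1.67) and the enzymes 16 of 24 (46.7 to 82.0%, ratio 2.65), and these intervals overlap too.

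In the promoters, 29 of 48 windows were listed, 60.4% (46.3 to 73.0%), against 39.6% of the promoter windows of all autosomal protein-coding genes. The prediction was 28.8% for the 8 genes and 29.2% for all genes. Each of the 8 promoters had at least 1 listed window, as had 76.6% of all autosomal promoters. SREBF1 and HMGCS1 had 6 of 6, which 7.39% of autosomal genes had. SREBF2 had 5, DHCR7 4, IDI1 and LSS 3, and SCAP and INSIG2 1 each. Gene bodies were listed at 55.5% (305 of 550, 51.3 to 59.6%), against 22.5% for all autosomal genes. Within them introns had 270 of 489 windows listed (55.2%), against 22.2% for the introns of all autosomal genes. Coding exons had 18 of 28 (64.3%), against 35.3%. The 3′UTR had 16 of 30 (53.3%), against 28.1%. The ratio of listed to predicted was 1.79 in introns, 1.46 in coding exons and 1.91 in the 3′UTR. Over all autosomal genes it had the same order, at 1.15, 1.04 and 1.27.

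Of the 8 windows that hold a canonical start, 2 were listed (HMGCS1 and DHCR7), near the 27.4% of all autosomal start windows. They had a mean of 50.4 CpG sites, from 30 to 64. In the second window downstream, with a mean of 13.0 CpG sites, 8 of 8 were listed, against 44.4% of all genes. In the second and the third window upstream 6 of 8 each were listed, against 47.3% and 42.1%. The windows next to the start window were listed in 3 of 8 (upstream, against 44.1% of all genes) and 4 of 8 (downstream, against 30.7%). Counts as low as that of the start were also found farther into the gene. They were 2 of 8 in the seventh and the tenth window downstream (36.9% and 36.2% of all genes). The ninth had 1 of 8 (36.3%). In the profile of all genes the share of start windows was the lowest from the sixth window upstream to the tenth downstream, and under the predicted 34.6%. Of the 13 other windows with an annotated protein-coding start, 8 were listed (61.5%, predicted 44.7%), against 41.2% of such windows of all autosomal genes (predicted 34.2%).

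**Figure D3:**
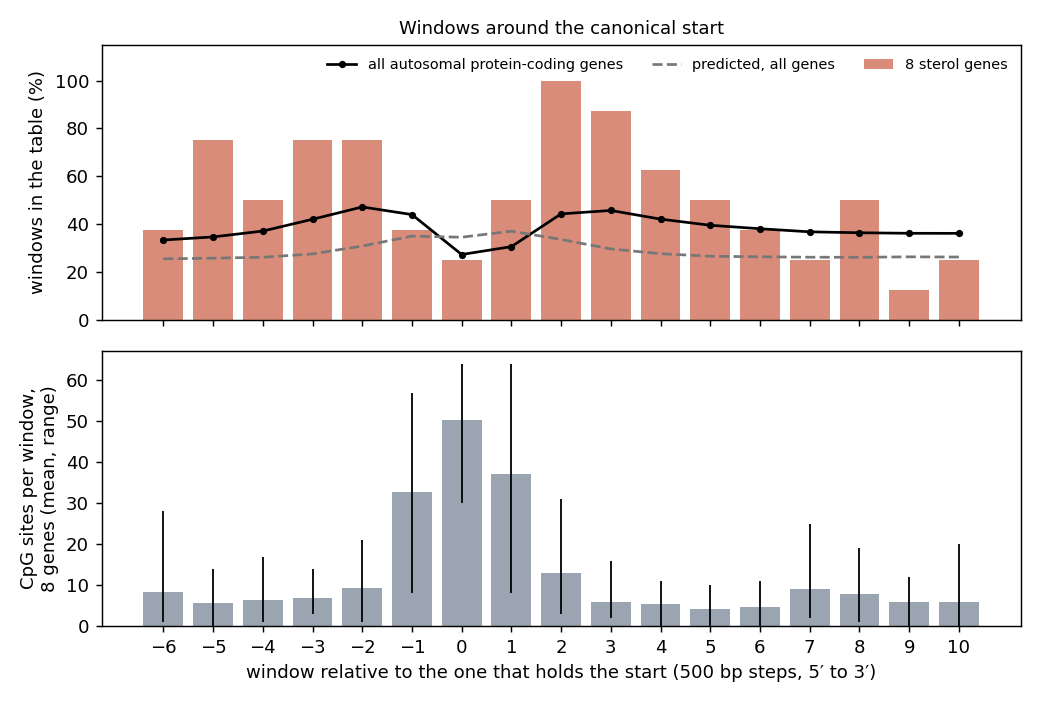
Windows relative to the one that holds the canonical start (x axis, 500 bp steps). Top, percent of the 8 genes whose window is in the table (bars), beside all autosomal protein-coding genes (line) and their prediction (dashed), bottom, mean number of CpG sites of the 8 genes with the range. The start window is listed in 2 of 8 genes and has the highest mean, 50.4 CpG sites.

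Over all 598 windows the listed share was higher with more CpG sites and lower again in the densest windows. It was 14.5% in windows with 0 or 1 CpG site (8 of 55), 39.6% with 2 to 4 (61 of 154), 66.5% with 5 to 9 (129 of 194), 72.4% with 10 to 19 (110 of 152) and 73.3% with 20 to 39 (22 of 30). In windows with 40 or more it was 30.8% (4 of 13, 12.7 to 57.6%). The windows of all autosomal protein-coding genes had the same shape at lower shares, from 4.40% through 51.9% and 55.3% to 28.9%. In the class of 5 to 9 CpG sites, which holds the most windows of the 8 genes, all genes were at 31.8%. Without SREBF2, LSS and DHCR7 the share in that class was 53.5% (53 of 99), and in the class of 10 to 19 it was 56.1% (32 of 57), near the 51.9% of all genes. The 4 listed windows with 40 or more CpG sites were at the start of DHCR7, 641 bp downstream of the SREBF2 start, and inside SREBF1 and SCAP.

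**Figure D4:**
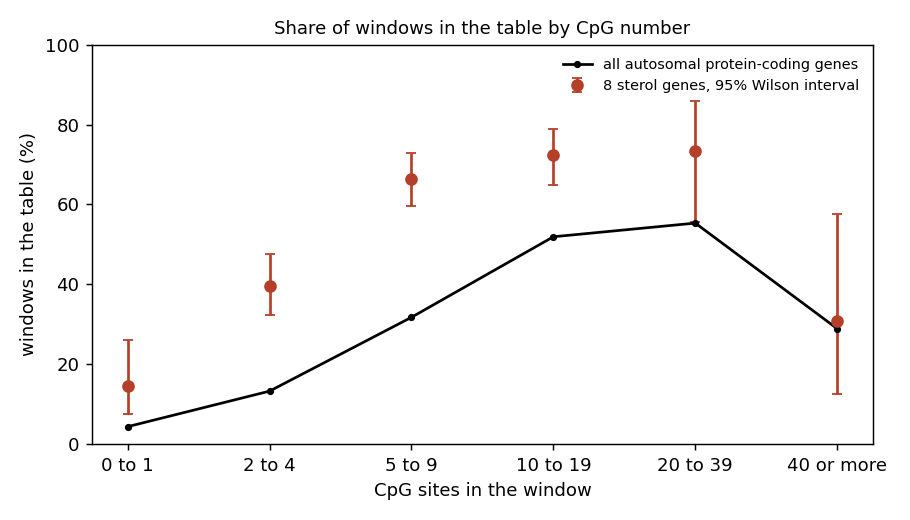
Percent of windows in the table (y axis) by the number of CpG sites in the window (x axis) for the 8 genes, with 95% Wilson intervals, and for all autosomal protein-coding genes (line). In both the share is highest at 10 to 39 CpG sites and lower at 40 or more, and that of the 8 genes is 30.8% in the last class against 28.9%.

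Another 30 genes of sterol synthesis, uptake and transport were counted in the same way, of which 27 are autosomal. Their median ratio was 1.66, from 0 to 3.67, with 20 of 27 above 1. Over all autosomal protein-coding genes the median was 1.14, and 57.1% were above 1. Among the enzymes next to the members, SQLE, which makes the substrate of LSS, had 27 of 54 windows listed. INSIG1, the homologue of INSIG2, had 16 of 31 windows and 4 of 6 promoter windows, against 10 of 51 and 1 of 6 for INSIG2. Relative to the prediction the gene regions were close, with a ratio of 1.85 for INSIG1 and 1.75 for INSIG2. The promoter ratios were 2.13 and 1.02. MBTPS1, the Golgi protease that cleaves SREBP, had 82 of 132. HSD17B7 had 0 of 50. In the 27 promoters 75 of 162 windows were listed (46.3%), against 39.6% of the promoter windows of all autosomal genes. At least 1 was listed in 23 of the 27, as in 76.6% of all autosomal promoters. The start window was listed in 2 of 27, against 27.4% of all autosomal start windows. On chromosome X, NSDHL, EBP and MBTPS2 had 9 of 84, 3 of 20 and 11 of 98 windows listed and no promoter window. The prediction, which comes from autosomes, was 23.2, 6.27 and 14.8 windows. The share of chromosome X as a whole is not given here, so these counts have no baseline of their own chromosome.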

How the data were processed

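Each of the 4 libraries was sequenced as single-end reads and, per the labels and the study's methods, mapped by the authors to hg19 with Bowtie 0.12.7, keeping unique and monoclonal reads. The deposited table, made with MEDIPS, gives chromosome, start and end of 500 bp windows and 4 value columns. The 4 value columns match no sample name and were not used. The name of the table gives a minimum of 20 for a window, and what that minimum was applied to, and the MEDIPS version, are not given in the sources used here.

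Windows were laid on GRCh37, whose autosomes have the coordinates of hg19, and 5368882 autosomal windows without an undetermined base were kept. The predicted share is that of autosomal windows with equal CpG number (40 or more as 1 class) and GC content in steps of 25 bases. Windows simulated from these same shares times known factors checked the arithmetic of the ratio only. They could not show how well CpG number and GC content predict listing. Canonical transcripts are from GENCODE 44 on GRCh37. Shares carry 95% Wilson intervals. There was no test, since no samples were compared, and no test of library values was run. All 8 members, the 30 other pathway genes and the motifs were described, with members and lists chosen with earlier results of these data known. Some of the other pathway genes are not reported here by name. RefSeq sequences of 2 microRNAs were matched by symbol. Python 3.11.15, NumPy 2.4.6, SciPy 1.17.1 and Matplotlib 3.10.9 were used.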

Additional observations from a re-analysis of the deposited data

How the results depend on the processing

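No paired analysis was possible because the columns of values carry no sample or replicate name. For that reason the scaling of the 4 libraries could not be varied. The borders of the regions, the prediction and the set of genes were varied instead. Of the resulting values, 74 stayed inside the interval of the value reported and 24 moved outside it. The 74 include the number of listed start windows, which has no interval and was unchanged. Another 1, that of DHCR7, turned from a ratio whose interval lay above 1 to a value below 1, for which no interval was computed. Over the 8 gene regions, the ratio of listed to predicted windows was 1.79 and became 2.05 with the prediction from CpG number alone, 1.59 with that of the same chromosome and 1.29 when scaled by the windows within 5 Mb. For the gene bodies, at 1.76, these were 2.04, 1.56 and 1.26. For the promoters, at 2.10, the ratio was 1.59 with 1500 bp. Leaving out each gene in turn gave ratios from 1.49 (without SREBF2) to 2.01 (without SCAP) and shares from 46.3% to 63.2%. Leaving out SREBF2, LSS and DHCR7, chosen after seeing the data, gave 39.0% and 1.48 for the regions and 37.2% and 1.42 for the bodies. DHCR7 turned from 1.56 to 0.831 when scaled by its neighbourhood, which is itself listed at 1.88 times its prediction. SCAP, at 0.967 with an interval that includes 1, was at 1.09 with CpG number alone, 1.21 when scaled by its neighbourhood and 1.00 with the prediction from windows far from starts, and INSIG2, at 1.75, was at 2.64 with the same chromosome and 3.40 when scaled by its neighbourhood. The number of listed start windows was 2 with either annotation of the start. The depth, not computed here, limits every statement on windows that are not listed.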
